A study of Mus musculus with 27 samples.

Results

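Transcripts of 10 genes of the ErbB and Met growth factor systems were followed in mouse mK4 cells. They were taken by name from the 24953 genes in the TPM table of 9 RNA-seq libraries, and all 10 were found: the receptor genes *Egfr*, *Erbb2*, *Erbb3* and *Met*, and the ligand genes *Areg*, *Ereg*, *Hbegf*, *Btc*, *Nrg1* and *Hgf*. mK4 is a mouse line derived from the metanephric mesenchyme, the embryonic kidney tissue that turns into nephron epithelium. The 3 groups of 3 libraries are control (parental mK4 cells, labelled WT), Runx1KO (mK4 sub-lines in which CRISPR/Cas9 removed exon 3 of *Runx1*) and ZebDKO (mK4 cells in which exon 2 of *Zeb1* and exon 1 of *Zeb2* were removed in the same way), all grown in medium with 10% FBS and collected at or near confluency. Peak lists of Runx1 (control cells), of Runx2 (control and Runx1KO cells) and of open chromatin by ATAC-seq (both of these lines compared) were used as well, and none for ZebDKO cells. The number of clones behind each knockout group is not given in the sources used here, so that clone and genotype cannot be told apart, and p-values measure the spread between these libraries.

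ErbB receptors are tyrosine kinases of the cell surface that pair with each other when a ligand binds, and they pass the signal on to the Ras and PI3 kinase pathways. Amphiregulin (*Areg*), epiregulin (*Ereg*), HB-EGF (*Hbegf*) and betacellulin (*Btc*) are ligands of Egfr, whereas neuregulin (*Nrg1*) binds Erbb3 and Erbb4, and Erbb2 has no known ligand of its own and serves as a partner. Most of these ligands are made as membrane-bound precursors that proteases cut loose. Met is the receptor of hepatocyte growth factor (*Hgf*), a factor of mesenchymal cells that acts on epithelial cells, and Egfr and Met signals both take part in the branching of the ureteric bud in the kidney.

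TPM is a level per length of transcript, in which every library sums to the same total. The libraries were of like composition, with 12541 to 12697 genes at 1 TPM or more, 18.6% to 19.7% of the signal in the 100 most abundant genes, and Pearson correlations of 0.994 to 0.996 between libraries of a group. Gene-level TPM did not show the deletions: *Runx1* was at 15.6 to 18.7 TPM in control and 28.5 to 30.3 TPM in Runx1KO libraries, and *Zeb1* was at 14.2 to 15.6 TPM in control and 14.8 to 16.8 TPM in ZebDKO libraries. *Zeb2* was at 4.9 to 5.5 TPM in control and 1.6 to 1.8 TPM in ZebDKO libraries, and both *Zeb1* and *Zeb2* were at or under 0.2 TPM in Runx1KO libraries. Of 12 markers of metanephric mesenchyme and nephron progenitors, 7 reached a mean of 1 TPM in control cells, *Pax2* and *Hoxa11* among them, while *Six2* and *Hoxd11* were listed at 0. Of 8 epithelial markers, 1 (*Krt8*) reached a mean of 1 TPM in control cells, against 6 in each knockout group, and the sum of the 8 was 2.8 to 5.0 TPM in control, 2660.5 to 2742.6 TPM in Runx1KO and 1150.3 to 1209.5 TPM in ZebDKO libraries. *Cdh1* stayed at or under 0.6 TPM in all 9 libraries, and *Epcam* was listed at 0 in control and Runx1KO libraries and at 26.7 to 28.8 TPM in ZebDKO libraries. Of 6 endothelial and 6 immune markers, *Cdh5* and *Cd68* reached 1 TPM, and the other genes of these lists, among them *Pecam1*, *Kdr*, *Ptprc* and *Adgre1*, were at or under 0.2 TPM in all 9. *Cdh5* was at 2.8 to 4.4 TPM in control, 1 to 1.2 TPM in Runx1KO and 3.6 to 5.5 TPM in ZebDKO libraries (log2 fold change -1.14, limma adjusted p = 0.00028, in Runx1KO against control), and *Cd68* was at 1.8 to 3.1 TPM throughout. By the limits given below, 3 of 7 progenitor markers tested (*Osr1*, *Gdnf* and *Eya1*) were called lower and 0 higher in Runx1KO against control. In ZebDKO against control 2 of 7 were called lower and 1 higher. Of 6 mesenchymal markers tested, 3 (*Zeb1*, *Zeb2* and *Twist2*) were called lower in Runx1KO against control, and 0 higher. Against control, ZebDKO cells had 1 called lower, *Zeb2*, which was itself targeted, and 0 higher. *Osr1*, *Gdnf*, *Zeb1* and *Zeb2* passed the filter given below in Runx1KO against control only through the control libraries. Their calls there are thus no support for a direction. Neither of the stromal markers tested was called. These called genes, the epithelial transcripts and *Cdh5* moved with the groups compared below, and their part in the results on the 10 genes was not tested. In bulk RNA, fewer cells of a type and less RNA per cell cannot be told apart.

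Expression was compared on log2(TPM + 1), a scale on which the fold change of a gene of low TPM is understated. Called genes had a limma adjusted p (Benjamini-Hochberg) under 0.05 together with a change of more than 2-fold, which is 1 on this scale, among the genes at 1 TPM or more in at least 3 of the 6 libraries compared. Of the 10 genes, 8 passed that filter in each of the 3 comparisons. *Ereg* reached at most 0.2 TPM and *Hgf* at most 0.2 TPM in any library, so that neither was tested.

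In Runx1KO cells 4 of the 8 genes tested were called, each of them higher than in control: *Btc*, *Areg*, *Hbegf* and *Erbb3*. Over all 13067 genes tested, 13.0% were called in either direction, 7.91% higher and 5.10% lower. In ZebDKO cells 3 of the 8 were called against control, *Erbb3* and *Hbegf* higher and *Areg* lower, where 14.8% of all 12974 genes tested were called (7.49% higher and 7.28% lower). Between the knockouts 2 of the 8 were called, *Areg* and *Btc*, both lower in ZebDKO than in Runx1KO cells, where 15.8% of all 13071 genes tested were called (6.59% higher and 9.20% lower). *Btc* passed the filter there only through the Runx1KO libraries, being at or under 0.8 TPM in ZebDKO libraries. Its call and its part in the median below are thus no support for a direction. Both comparisons with control use the same 3 control libraries. The median log2 fold change of the 8 genes was 1.20 in Runx1KO against control, beside -0.06 over all genes, -0.20 in ZebDKO against control, beside -0.18 over all genes, and -0.60 in ZebDKO against Runx1KO, beside -0.15 over all genes.

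**Figure D1:**
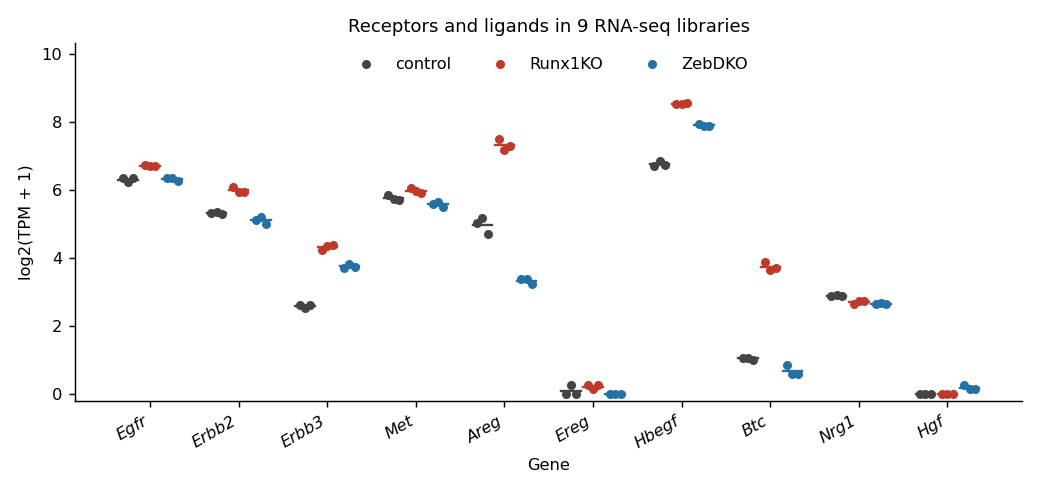
Level of the 10 genes in each of the 9 RNA-seq libraries, as log2(TPM + 1) on the vertical axis, with 1 point per library, a bar at the group mean and a colour per group (control, Runx1KO, ZebDKO). *Areg* and *Btc* are highest in Runx1KO and lowest in ZebDKO libraries, *Hbegf* and *Erbb3* are higher in both knockouts than in control, and *Ereg* and *Hgf* stay near 0.

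Among the receptors, *Erbb3*, whose kinase is weak and which recruits PI3 kinase, had the widest range. *Erbb3* was at 5.1, 4.8 and 5.1 TPM in control, at 17.8, 19.2 and 19.9 TPM in Runx1KO and at 12.1, 13.2 and 12.3 TPM in ZebDKO libraries. The 3 groups did not overlap, with control lowest and Runx1KO highest. The mean TPM of *Erbb3* was 3.79-fold higher in Runx1KO than in control (log2 fold change 1.73, SE 0.057, limma adjusted p = 3.38e-07) and 2.51-fold higher in ZebDKO than in control (log2 fold change 1.17, SE 0.058, limma adjusted p = 1.87e-06). Between the knockouts the log2 fold change of *Erbb3* was -0.56 (95% interval -0.70 to -0.43), under the 2-fold limit.

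The other 3 receptor genes were not called in any comparison. *Erbb2*, the partner receptor, was at 38.9, 39.4 and 38.3 TPM in control, at 66.7, 60.8 and 60.6 TPM in Runx1KO and at 33.6, 35.6 and 31 TPM in ZebDKO libraries. Every Runx1KO library was thus above, and every ZebDKO library below, the control libraries. The log2 fold change of *Erbb2* was 0.67 (SE 0.044) in Runx1KO against control, -0.21 (SE 0.054) in ZebDKO against control and -0.89 (SE 0.061) in ZebDKO against Runx1KO, with limma adjusted p-values of 1.1e-05, 0.00739 and 7.88e-06. A gene on the other strand, *1810046J19Rik*, has exons over those of *Erbb2*, and whether reads were counted by strand is not given in the sources used here.

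*Egfr* was at 80.7, 73.7 and 79.8 TPM in control, at 105.2, 102.3 and 102.4 TPM in Runx1KO and at 80.2, 81.2 and 75 TPM in ZebDKO libraries. The Runx1KO libraries were above the others, whereas control and ZebDKO libraries overlapped. The log2 fold change of *Egfr* was 0.40 (95% interval 0.31 to 0.50) in Runx1KO against control, and 0.01 (95% interval -0.10 to 0.13, limma adjusted p = 0.809) in ZebDKO against control. *Met* was at 56.7, 51.6 and 51.1 TPM in control, at 65.7, 60.9 and 59.5 TPM in Runx1KO and at 47.3, 48.7 and 43.7 TPM in ZebDKO libraries. The groups did not overlap, but the log2 fold changes of *Met* were small, 0.22 (SE 0.055) in Runx1KO and -0.19 (SE 0.058) in ZebDKO against control.

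Small differences of this kind were common among all genes. Groups that did not overlap were found for 8 of the 8 genes in Runx1KO against control, where 73.7% of all genes tested did not overlap, for 7 of 8 in ZebDKO against control (81.0% of all genes), and for 7 of 8 in ZebDKO against Runx1KO (81.7% of all genes). A limma adjusted p under 0.05 at any size was likewise reached by 8, 7 and 7 of the 8, beside 70.5%, 79.4% and 80.0% of all genes. In ZebDKO against control the median of all genes lay at -0.18, so that the values of *Erbb2*, *Met* and *Nrg1* were near those of a typical gene. With TPM scaled to equal medians of ratios between libraries, that median became 0.00 and *Egfr* was at 0.21 (limma adjusted p = 0.00327), *Met* at 0.01 (adjusted p = 0.855), *Erbb2* at -0.02 (adjusted p = 0.753) and *Nrg1* at -0.07 (adjusted p = 0.291). The genes called were the same under that scaling.

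**Figure D2:**
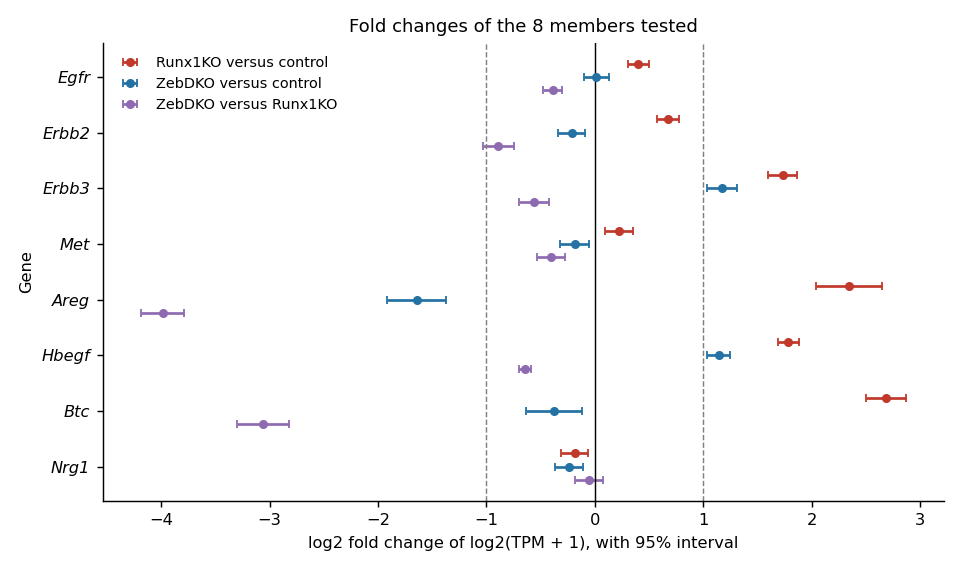
log2 fold change of log2(TPM + 1) on the horizontal axis for the 8 genes tested, with the 95% interval of limma as bars, in 3 comparisons of 3 against 3 libraries. Dashed lines mark the 2-fold limit. *Areg* and *Btc* lie furthest out, at 2.34 and 2.69 in Runx1KO against control and at -3.98 and -3.06 in ZebDKO against Runx1KO, and the fold changes of *Egfr*, *Erbb2*, *Met* and *Nrg1* stay inside the limit in all 3 comparisons.

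Of the Egfr ligands, *Areg* moved in opposite directions in the knockouts. *Areg* was at 31.8, 35.2 and 25.3 TPM in control, at 178.9, 143.2 and 156 TPM in Runx1KO and at 9.4, 9.5 and 8.4 TPM in ZebDKO libraries. No library of a group came within the range of another, the lowest Runx1KO library being above the highest control library and the highest ZebDKO library below the lowest control library. The mean TPM of *Areg* was 5.18-fold higher in Runx1KO than in control (log2 fold change 2.34, SE 0.13, limma adjusted p = 4.64e-06) and 3.38-fold lower in ZebDKO than in control (log2 fold change -1.64, SE 0.12, limma adjusted p = 9.63e-06). The difference between the knockouts was tested directly: *Areg* was 17.5-fold lower in ZebDKO than in Runx1KO cells (log2 fold change -3.98, SE 0.085, limma adjusted p = 4.68e-08).

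*Btc* was at 1.1, 1.1 and 1 TPM in control, at 13.6, 11.4 and 12 TPM in Runx1KO and at 0.8, 0.5 and 0.5 TPM in ZebDKO libraries. It was thus present at a low level in control cells and above that level in Runx1KO cells only. The mean TPM of *Btc* was 11.6-fold higher in Runx1KO than in control (log2 fold change 2.69, SE 0.078, limma adjusted p = 2.02e-07) and 20.6-fold lower in ZebDKO than in Runx1KO cells (log2 fold change -3.06, SE 0.10, limma adjusted p = 2.91e-07). Values this low carry the added 1 TPM heavily, and with 0.1 TPM added the log2 fold change of *Btc* in Runx1KO was 3.41. ZebDKO against control gave -0.37 (95% interval -0.63 to -0.12), which was not called. In each comparison with ZebDKO libraries, *Btc* passed the filter only through the other group.

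*Hbegf*, whose product binds heparin as well as its receptor, was the most abundant of the 10 genes in each group. *Hbegf* was at 102.2, 113.9 and 104.6 TPM in control, at 368.5, 368.4 and 373.8 TPM in Runx1KO and at 241.3, 233.1 and 235.8 TPM in ZebDKO libraries. Both knockouts were above control without overlap. The mean TPM of *Hbegf* was 3.46-fold higher in Runx1KO (log2 fold change 1.78, SE 0.042, limma adjusted p = 7.33e-08) and 2.21-fold higher in ZebDKO than in control (log2 fold change 1.14, SE 0.044, limma adjusted p = 6.4e-07), and the log2 fold change between the knockouts was -0.64 (95% interval -0.70 to -0.59). *Ereg* was listed at 0, 0.2 and 0 TPM in control, at 0.2, 0.1 and 0.2 TPM in Runx1KO and at 0 in all 3 ZebDKO libraries, values that are at most 2 steps of the 0.1 TPM to which the table is rounded.

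Summed over the 7 ligands of Egfr in the table (*Areg*, *Ereg*, *Hbegf* and *Btc*, with *Tgfa*, *Egf* and *Epgn*), ligand transcripts came to 140.6, 155.9 and 134.6 TPM in control, to 578.7, 540.6 and 560.3 TPM in Runx1KO and to 264.9, 258.1 and 258.7 TPM in ZebDKO libraries. The groups did not overlap, and 3 against 3 libraries cannot give an exact permutation p below 0.1. *Hbegf* made up a mean of 74.5% of the sum in control, 66.2% in Runx1KO and 90.9% in ZebDKO cells. The share of *Areg* was 21.3%, 28.4% and 3.49% in the same order, so that its place in the sum was smallest in ZebDKO cells.

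**Figure D3:**
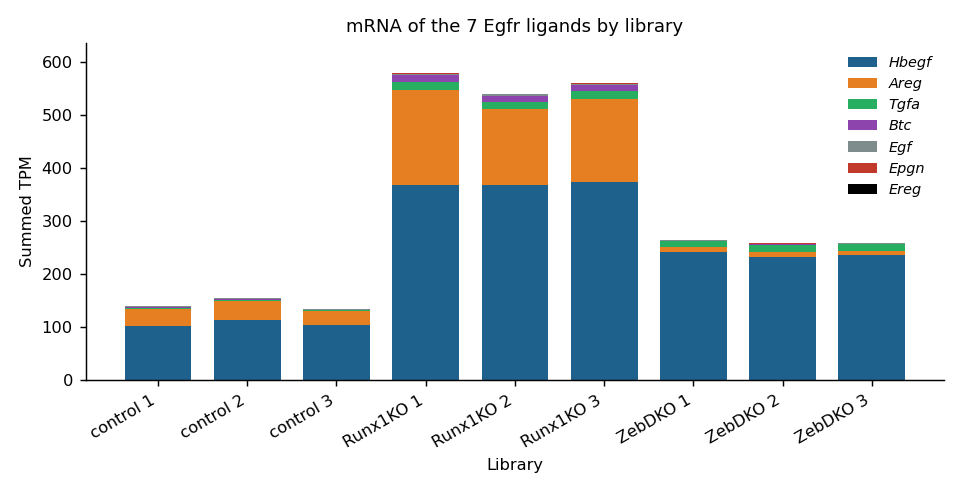
TPM of the 7 Egfr ligands on the vertical axis, stacked within each of the 9 libraries on the horizontal axis, with a colour per ligand. *Hbegf* is the largest part in every library, the 3 Runx1KO libraries reach 540.6 to 578.7 TPM, and *Areg* is a visible part in control and Runx1KO but thin in ZebDKO libraries.

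*Nrg1*, the neuregulin among the 10 genes, was at 6.4, 6.5 and 6.4 TPM in control, at 5.3, 5.7 and 5.6 TPM in Runx1KO and at 5.2, 5.4 and 5.3 TPM in ZebDKO libraries. Control libraries were above both knockouts, which overlapped. The log2 fold change of *Nrg1* was -0.19 (SE 0.053, limma adjusted p = 0.0156) in Runx1KO and -0.24 (SE 0.054, limma adjusted p = 0.00457) in ZebDKO against control, and -0.05 (95% interval -0.18 to 0.08) between the knockouts. The level of *Nrg1* depended on the table. A second TPM table holds the same 3 control and 3 Runx1KO libraries, scaled separately by the authors, and is no independent set. In it *Nrg1* was at 54.2 to 59.0 TPM in control and 54.3 to 55.9 TPM in Runx1KO libraries. The ratio of the control means of the tables was 8.85 for *Nrg1*, and it lay between 0.399 and 0.781 for the other 7 genes tested. Over 10126 genes at 5 TPM or more the median ratio was 0.644, and 20 genes (0.198%) had a ratio as high as that of *Nrg1*. In that table the log2 fold change of *Nrg1* was -0.04 (limma adjusted p = 0.367), while the same 4 genes, *Erbb3*, *Areg*, *Hbegf* and *Btc*, were called. *Gm17443* on the other strand has exons over those of *Nrg1*.

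*Hgf*, the ligand of Met, was listed at 0 in all 3 control and all 3 Runx1KO libraries and at 0.2, 0.1 and 0.1 TPM in ZebDKO libraries. A receptor transcript with next to no transcript of its ligand was thus measured for Met in all 9 libraries. In the order of levels in control cells, *Hbegf* was followed by *Egfr*, *Met*, *Erbb2*, *Areg*, *Nrg1*, *Erbb3* and *Btc*, with no overlap between neighbours, and by *Ereg* and *Hgf*, which overlapped. In Runx1KO cells *Areg* stood in second place, at 143.2 to 178.9 TPM above *Egfr* at 102.3 to 105.2 TPM, and *Erbb2* and *Met* overlapped. In ZebDKO cells *Areg*, at 8.4 to 9.5 TPM, stood below *Erbb3*, at 12.1 to 13.2 TPM. The order places *Nrg1* by the table of 9 libraries only.

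Other receptors and ligands of these systems were given by 9 genes, of which 5 were tested. *Tgfa*, a further ligand of Egfr, was at 3.2, 2.9 and 1.9 TPM in control, at 14.2, 14 and 15.1 TPM in Runx1KO and at 11.8, 13.1 and 12.5 TPM in ZebDKO libraries. It was the 1 gene of the list called in each comparison with control, with log2 fold changes of 2.09 (SE 0.14, limma adjusted p = 1.07e-05) in Runx1KO and 1.89 (SE 0.14, limma adjusted p = 1.07e-05) in ZebDKO cells. Between the knockouts its log2 fold change was -0.20 (95% interval -0.33 to -0.07), which was not called. The neuregulin genes *Nrg2* and *Nrg4* were not called, at 26.5 to 26.9 and 6.4 to 8.3 TPM in control and 37.9 to 42.4 and 6.7 to 7.0 TPM in Runx1KO libraries. *Mst1*, the ligand of the Met relative Mst1r, was called between the knockouts (log2 fold change -1.01, SE 0.23, limma adjusted p = 0.00517), from 3.3 to 4.9 TPM in Runx1KO to 0.9 to 2.6 TPM in ZebDKO libraries, a value at the limit of a call and inside it when the median of all genes (-0.15) is taken off. *Erbb4* and *Nrg3* were listed at 0 in all 9 libraries, and *Mst1r* was at or under 0.1 TPM, so that among ErbB receptors only *Egfr*, *Erbb2* and *Erbb3* had transcripts above 0 in these libraries. *Erbb4*, *Nrg3* and *Mst1r* were named after their values were seen.

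Among 12 genes that cut ligands loose or activate Hgf, 9 were tested in Runx1KO against control, with 4 called higher and 1 lower (7.91% and 5.10% of all genes tested). In ZebDKO against control 10 were tested, with 7 called higher and 0 lower (7.49% and 7.28% of all genes tested). *Rhbdf2*, an inactive rhomboid needed to bring the protease Adam17 to the surface, was at 28.9 to 31.8 TPM in control, 79.2 to 83.7 TPM in Runx1KO and 119.5 to 126.1 TPM in ZebDKO libraries (log2 fold changes of 1.41, SE 0.047, and 2.00, SE 0.048, against control). *Adam17* itself, the main protease for *Areg* and *Hbegf* precursors, was not called, at 8.9 to 9.5 TPM in control, 8.8 to 9.1 TPM in Runx1KO and 5.7 to 6.8 TPM in ZebDKO libraries. *Adam12*, a metalloprotease known to cut HB-EGF, was at or under 0.3 TPM in control and Runx1KO libraries and at 14.7 to 18 TPM in ZebDKO libraries (log2 fold change 3.79, SE 0.091, against control). *Adam10* and *Adam9*, the most abundant of the genes not called against control, were at 117.9 to 128.2 and 72.3 to 80.4 TPM in control, and at 85.8 to 93.8 and 38.4 to 44.8 TPM in ZebDKO libraries. The rhomboid relative *Rhbdf1* was called in ZebDKO cells (log2 fold change 1.08, SE 0.051) and not in Runx1KO cells (-0.03, SE 0.048). *Rhbdf1*, *Adam17*, *Spint1* and *Plau* in ZebDKO against control were named after their values were seen.

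Some proteases that activate Hgf, and an inhibitor of theirs, were called as well. *Hgfac*, an Hgf activator protease, was at 0.1 to 0.4 TPM in control, 16.4 to 18.1 TPM in Runx1KO and 4.9 to 5.8 TPM in ZebDKO libraries. *Hpn*, the protease hepsin, was listed at 0 in control, at 9.4 to 10 TPM in Runx1KO and at 0.7 to 0.9 TPM in ZebDKO libraries, and *St14*, the protease matriptase, was at or under 0.5 TPM except in ZebDKO libraries, at 3.6 to 4.2 TPM. *Spint2*, an inhibitor of these proteases, was at 16.4 to 19.3 TPM in control, 146.2 to 158 TPM in Runx1KO and 153.7 to 161.4 TPM in ZebDKO libraries, with a mean TPM 8.35-fold and 8.74-fold that of control. Its relative *Spint1* was at or under 0.3 TPM in all 9. *Plau*, urokinase, moved in opposite directions, from 3.2 to 5.5 TPM in control to at most 0.2 TPM in Runx1KO libraries (log2 fold change -2.24, SE 0.17) and 9.4 to 10.6 TPM in ZebDKO libraries (log2 fold change 1.06, SE 0.15, and 3.30, SE 0.094, between the knockouts). *Hgfac* and *Hpn* in Runx1KO against control, and *Hgfac*, *Adam12* and *St14* in ZebDKO against control, passed the filter on low values only through the knockout. *Plau* passed it only through the control libraries in Runx1KO against control, and only through the ZebDKO libraries between the knockouts. The counts of this list, and the values of *Plau* in those comparisons, are thus no support for a direction.

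**Figure D4:**
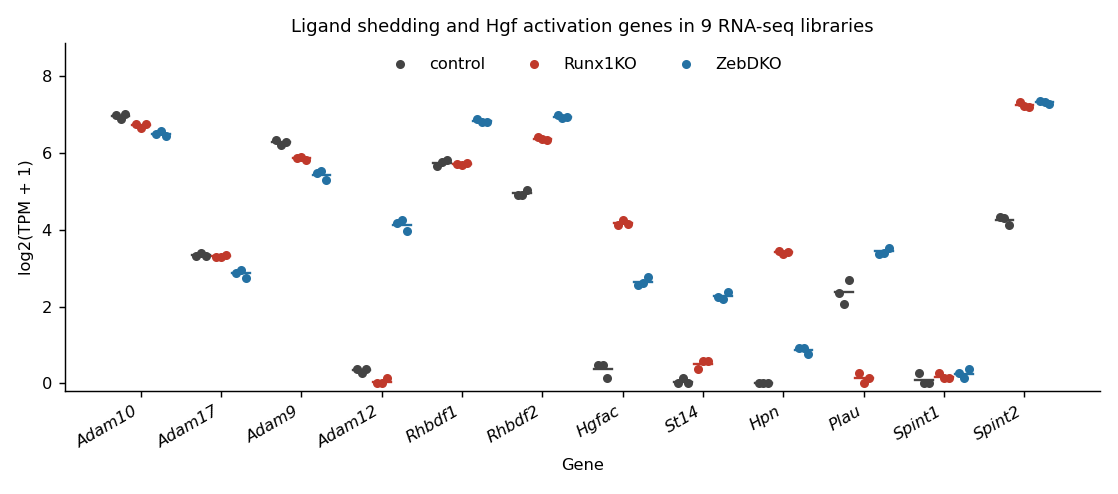
Level of 12 genes of ligand shedding and Hgf activation in each of the 9 RNA-seq libraries, as log2(TPM + 1) on the vertical axis, with 1 point per library, a bar at the group mean and a colour per group. *Spint2* and *Rhbdf2* are higher in both knockouts than in control, *Hpn* and *Hgfac* are highest in Runx1KO libraries, and *Adam12*, *St14*, *Plau* and *Rhbdf1* are highest in ZebDKO libraries.

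Of 24 adaptors and kinases below the receptors, all 24 were tested. Called were 0 higher and 1 lower in Runx1KO against control (7.91% and 5.10% of all genes tested). The counts were 0 higher and 2 lower in ZebDKO against control (7.49% and 7.28%), and 0 between the knockouts (15.8% in either direction). Between the knockouts 19 of the 24 had a limma adjusted p under 0.05 (80.0% of all genes) and 19 an unadjusted p under 0.05, all with a change under 2-fold. These counts are given as a description. *Pik3r1*, the regulatory subunit of PI3 kinase, was at 18.4 to 23.4 TPM in control, 5.2 to 5.9 TPM in Runx1KO and 6 to 6.9 TPM in ZebDKO libraries, with log2 fold changes of -1.75 (SE 0.095) and -1.59 (SE 0.095) against control. The docking protein gene *Gab2* was at 16.5 to 18.1 TPM in control and 7.8 to 8.2 TPM in ZebDKO libraries, a value at the limit (log2 fold change -1.01, SE 0.056) and inside it when the median of all genes (-0.18) is taken off. The most abundant of the list, *Mapk3* and *Nras*, were not called, at 207 to 215.4 and 182.5 to 204 TPM in control, 151.9 to 160.2 and 149 to 150.8 TPM in Runx1KO, and 183.8 to 190.1 and 116.7 to 129.8 TPM in ZebDKO libraries.

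Of 17 inhibitors and feedback genes, all tested, 3 were called higher and 0 lower in Runx1KO against control (7.91% and 5.10% of all genes). *Dusp5* and *Dusp6*, phosphatases of Erk, were at 145.8 to 161.7 and 127.2 to 141.9 TPM in control and at 432.6 to 489.5 and 368.9 to 376.7 TPM in Runx1KO libraries, with log2 fold changes of 1.57 (SE 0.059) and 1.48 (SE 0.042). *Cblc*, an epithelial member of the Cbl ubiquitin ligases, was at 0.1 TPM in each control library and at 3.2 to 4.1 TPM in Runx1KO libraries, so that it passed the filter only through the knockout. In ZebDKO against control 2 were called higher and 1 lower (7.49% and 7.28% of all genes tested). Higher were *Cblc*, at 2.7 to 3 TPM, and the Ras pathway inhibitor *Spry4*, from 3.1 to 3.2 to 18.1 to 20.2 TPM (log2 fold change 2.26, SE 0.059). *Cblc* again passed the filter only through the knockout, so that neither of its calls is support for a direction. Lower was *Socs3*, from 201.2 to 228.1 to 57.3 to 61.7 TPM (log2 fold change -1.86, SE 0.057). *Dusp6* was at 121.2 to 133 TPM in ZebDKO libraries, overlapping control, and was called lower than in Runx1KO cells (log2 fold change -1.56, SE 0.037). *Dusp5* was at 255.6 to 282.2 TPM in ZebDKO libraries, above control but under the 2-fold limit. *Errfi1*, a cytoplasmic inhibitor of Egfr, was not called, at 154.6 to 161.6 TPM in control, 188.4 to 210.5 TPM in Runx1KO and 123.2 to 124.9 TPM in ZebDKO libraries. The median of the list was 0.14 in Runx1KO (all genes -0.06) and -0.10 in ZebDKO against control (all genes -0.18).

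Of 12 genes that respond early to growth factors, all were tested. In Runx1KO against control 1 was called higher and 1 lower (7.91% and 5.10% of all genes tested). *Fos* was at 400.1 to 421.7 TPM in control and 1467.3 to 1548.6 TPM in Runx1KO libraries (log2 fold change 1.86, SE 0.031), and *Ptgs2*, which encodes cyclooxygenase 2, was at 94 to 104.4 TPM in control and 3.4 to 4.3 TPM in Runx1KO libraries (log2 fold change -4.39, SE 0.077). In ZebDKO against control 4 were called higher and 0 lower (7.49% and 7.28% of all genes tested). The 4 were *Myc* (from 38.6 to 40.6 to 179.7 to 188.3 TPM, log2 fold change 2.18, SE 0.035), *Fosl1* (1.22, SE 0.037), *Ier3* (1.21, SE 0.030) and *Egr1* (1.14, SE 0.068). *Ptgs2* was at 103.9 to 112.2 TPM in ZebDKO libraries, overlapping control. The Erk target genes *Etv4* and *Etv5*, named after their values were seen, were not called in any comparison, the former at 43.5 to 45.2 TPM in control, 36.3 to 38.4 TPM in Runx1KO and 40.9 to 44.5 TPM in ZebDKO libraries, and the latter at 8.6 to 8.8, 10.9 to 12.3 and 4.9 to 5.7 TPM. *Junb*, the most abundant of the list, was called between the knockouts only (log2 fold change 1.16, SE 0.037), at 2011.3 to 2158.3 TPM in Runx1KO and 4445.8 to 4754.9 TPM in ZebDKO libraries. The median of the list was 0.14 in Runx1KO and 0.83 in ZebDKO against control (all genes -0.06 and -0.18).

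Peaks were placed in the regulatory domain of a gene, from 5 kb before to 1 kb after its start and extended up to 1000 kb to the domains of its neighbours. ATAC-seq peaks carry a class given to them by the authors: Runx1-dependent peaks were more open in control, Runx1KO-induced peaks were more open in Runx1KO cells, and Runx1-independent peaks belong to neither class. A Runx1-dependent peak lay in the domain of 6 of the 10 genes, beside 36.1% of the 10708 genes tested in Runx1KO against control that had a position, and a Runx1KO-induced peak in that of 8 of the 10, beside 43.8%. A Runx1 peak of control cells lay in the domain of 5 of the 10 (48.0% of genes), a Runx2 peak of control cells in that of 6 (72.8%), and a Runx2 peak of Runx1KO cells in that of 5 (72.8%). The shares are over tested genes only, whereas the counts hold *Ereg* and *Hgf*, which were not tested. *Areg* and *Btc* are each counted for the peaks that they share. These lists hold no values per replicate, so that no test was made, and the counts depend on the placement, as they fell to 0, 4, 1, 3 and 3 in the same order within 20 kb of the start. The share of all genes within 20 kb was not kept, so that these lower counts cannot be called many or few.

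*Areg* and *Btc* face each other on chromosome 5 of mm9. *Areg* (ENSMUSG00000029378.4) lies at chr5:91568641-91577458 on the plus strand and *Btc* (ENSMUSG00000082361.2) at chr5:91786287-91831939 on the minus strand, and they share the peaks between them. The nearest gene of the 10 on the other side is *Ereg* (chr5:91503643-91522675, plus strand). Both *Areg* and *Btc* had a Runx1-independent peak at the start, and no ATAC-seq or ChIP-seq peak of a Runx1-dependent, Runx1KO-induced, Runx1 or Runx2 list within 20 kb of it. Between the genes lay 3 Runx1 peaks, 1 Runx1-dependent and 1 Runx1KO-induced ATAC-seq peak. The strongest Runx1 peak, with 11.04-fold enrichment (-log10 q of 25.9), lay 144 kb from the start of *Areg* and 120 kb from that of *Btc*, in open chromatin of the Runx1-independent class, with a Runx2 peak in control (10.8-fold) and in Runx1KO cells (9.34-fold). A weaker Runx1 peak (4.67-fold) lay 168.5 kb from the start of *Areg*, also with Runx2 in both lines. The Runx1-dependent peak lay 155.6 kb and the Runx1KO-induced peak 153.8 kb from the start of *Areg*, and neither overlapped a ChIP-seq peak.

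**Figure D5:**
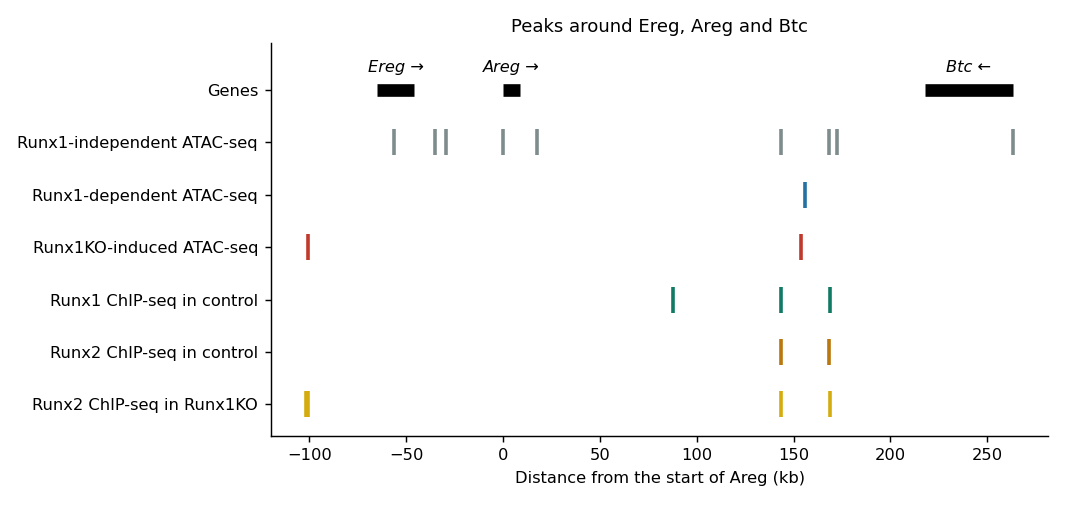
Position of peaks around *Ereg*, *Areg* and *Btc*, as the distance in kb from the start of *Areg* on the horizontal axis, with 1 tick per peak and a row per peak list, the genes as black bars and arrows for their direction. Runx1 and Runx2 peaks coincide near 144 kb and 168.5 kb, where the chromatin is Runx1-independent, and the Runx1-dependent and Runx1KO-induced peaks lie next to each other between them, at 155.6 and 153.8 kb.

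The middle 200 bases of 3 of these peaks are shown as examples of the Runx and Zeb matches between *Areg* and *Btc*, where 2 Runx1-independent windows also hold an AP-1 match. They were read from the plus strand of mm9 and are in lower case, with capitals for matches to TGTGGT (Runx) or to CAGGTA or CAGGTG (Zeb), searched on both strands together with TGAGTCA and TGACTCA (AP-1).
Runx2 peak of control cells at chr5:91711914-91712371, window chr5:91712042-91712241: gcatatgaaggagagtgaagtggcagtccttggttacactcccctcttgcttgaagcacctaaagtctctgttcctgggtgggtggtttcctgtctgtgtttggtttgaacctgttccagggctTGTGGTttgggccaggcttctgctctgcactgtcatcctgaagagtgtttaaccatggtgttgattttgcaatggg
Runx1 peak of control cells at chr5:91737108-91737242, window chr5:91737075-91737274: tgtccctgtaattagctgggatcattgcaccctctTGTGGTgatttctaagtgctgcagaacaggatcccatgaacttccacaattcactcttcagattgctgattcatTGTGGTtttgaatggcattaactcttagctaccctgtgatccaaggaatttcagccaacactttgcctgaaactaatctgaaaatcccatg
Runx1KO-induced ATAC-seq peak at chr5:91722157-91722627, window chr5:91722292-91722491: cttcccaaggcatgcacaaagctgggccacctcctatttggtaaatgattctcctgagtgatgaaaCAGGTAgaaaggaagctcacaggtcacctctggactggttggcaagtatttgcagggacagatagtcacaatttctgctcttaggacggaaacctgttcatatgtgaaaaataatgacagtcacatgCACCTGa

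The Runx2 window holds 1 Runx match and the Runx1 window 2, where 37.1% of all Runx2 windows of control cells and 33.5% of all Runx1 windows hold at least 1. The Runx1KO-induced window holds 2 Zeb matches (1 on each strand) and no Runx match, where 50.7% of all Runx1KO-induced windows hold a Zeb match and 14.4% a Runx match. The window of the Runx1-dependent peak between the genes holds none of the searched letters. Over all distinct peaks in the domains of the 10 genes, a Zeb match was found in 6 of 12 Runx1KO-induced windows and in 0 of 9 Runx1-dependent windows (50.7% and 12.0% of all windows of these classes). A Runx match was found in 0 of 12 Runx1KO-induced and 2 of 9 Runx1-dependent windows (14.4% and 26.9%), and in 6 of 11 Runx1 windows. These shares are of few peaks and are given as a description.

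Around *Hbegf* (ENSMUSG00000024486.5, chromosome 18, minus strand) 3 Runx1KO-induced peaks lay in the domain, at distances of 1.58 (in an intron), -3.28 and 48.1 kb from the start, where negative values lie before it, and no Runx1-dependent and no Runx1 peak. Its start was in a Runx1-independent peak and between 2 weak Runx2 peaks of control cells (3.96-fold and 4.36-fold), with no Runx2 peak of Runx1KO cells in the domain and 1 within 20 kb of the start, outside the domain. *Erbb3* (ENSMUSG00000018166.8, chr10:128004579-128026708, minus strand) and *Erbb2* (ENSMUSG00000062312.5, chr11:98273784-98299030, plus strand) had a similar layout. Each had 1 Runx1KO-induced peak in an intron, 5.45 kb after the start of *Erbb3* and 6.65 kb after that of *Erbb2*, a Runx1-independent peak at the start, and no Runx1-dependent, Runx1 or Runx2 peak in the domain. The window of the peak in *Erbb2* held 1 Zeb match and that in *Erbb3* none.

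*Egfr* (ENSMUSG00000020122.9, chr11:16652206-16818161, plus strand) had Runx2 peaks at the start in both lines (up to 4.99-fold in control and 4.51-fold in Runx1KO cells), and a Runx1-dependent peak at -193 kb that met a Runx1 peak (4.88-fold) and Runx2 peaks of both lines. A Runx1KO-induced peak lay in its intron, 7.99 kb after the start. With peaks outside the domain of *Egfr* counted too, 2 Runx1KO-induced peaks, 1 Runx1 peak and 3 Runx2 peaks of each line lay within 20 kb of the start. *Met* (ENSMUSG00000009376.8, chr6:17413800-17523980, plus strand) had 1 Runx1-dependent and 4 Runx1KO-induced peaks, none within 20 kb of the start, and no Runx1 or Runx2 peak. *Nrg1* (ENSMUSG00000062991.5, chr8:32928500-33119581, minus strand), with a domain of 1288 kb the widest of the 10, had 5 Runx1-dependent and 5 Runx1 peaks and no Runx1KO-induced peak, the nearest Runx1-dependent peak at -191 kb. A Runx2 peak of each line lay at its start. At 2 of its 5 Runx1-dependent peaks Runx1 and Runx2 peaks of both lines overlapped. *Ereg* had a Runx1KO-induced peak at -35.8 kb that met a Runx2 peak of Runx1KO cells only (5.08-fold), with a level at most 0.2 TPM. *Hgf* (ENSMUSG00000028864.3, chr5:16059368-16125257, plus strand) had 1 Runx1-dependent peak, at -497 kb, and no Runx1KO-induced peak.

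The genes with the most similar pattern over the 9 libraries were taken by Pearson correlation on log2(TPM + 1) for the 3 of the 10 with the widest range, and are given as a description, since the 9 points fall into 3 groups. For *Areg* these were *D1Ertd622e*, *Rad1* and *Birc5*, with *D1Ertd622e* at 8 to 8.2 TPM in control, 13.7 to 14.3 TPM in Runx1KO and 5.2 to 5.6 TPM in ZebDKO libraries (r = 0.998). For *Btc* they were *Mrps30*, *4833420G17Rik* and *Fam213a*, with *4833420G17Rik* at 7.9 to 8.3, 87.6 to 93 and 5.7 to 6.1 TPM (r = 0.998). For *Hbegf* they were *Slc45a3*, *Ckmt1* and *Large2*, with *Slc45a3* at 0 to 0.2, 28.3 to 29.6 and 7.7 to 8.9 TPM (r = 0.999). Such patterns were common, with 730, 699 and 505 of 13366 genes above r = 0.95 for *Areg*, *Btc* and *Hbegf*.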

How the data were processed

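RNA-seq was measured in 9 libraries, and ChIP-seq and ATAC-seq were used as pooled peak lists. Per the paper's methods, reads were trimmed with Trim Galore, aligned to mm9 with STAR, cleared of duplicates with sambamba and counted on RefSeq genes with featureCounts, version 1.6.2 in the submitters' processing notes. The authors deposited TPM, without stating gene lengths or strand, rounded to 0.1 in the table of 9 libraries. That table has 24953 genes, and a second TPM table of 6 of the same 9 libraries has 32792 names, 26 of them turned into dates. The authors called ChIP-seq peaks with MACS2 on combined replicates, and deposited the fold enrichment as a ratio and the q-value as -log10. The log2 values deposited by the authors with the ATAC-seq lists, and the values beside them, are their own comparison of Runx1KO with control and were not used. No counts were used, so depth is unknown, and no interval for counting error was given.

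Expression was tested with R 4.3.3 and limma 3.58.1 on log2(TPM + 1), with a mean-variance trend, two-sided, Benjamini-Hochberg over all genes tested, after a check on simulated data. Only the 2 groups compared entered a fit, without the replicate number, since same-numbered libraries of different groups did not deviate together. The 10 genes, the lists and the alternatives were chosen with earlier results of these data known. Of a list other than the 10 genes, at most 5 called genes by absolute log2 fold change and up to 2 of the highest mean TPM not called were named. Peaks were placed with GENCODE vM1 on mm9 by their middle, motifs were searched in the 200 bases around it, and Python 3.11.15, pandas 2.3.3 and matplotlib 3.10.9 were used. Sequences on chromosome 18 are not shown.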

Additional observations from a re-analysis of the deposited data

How the results depend on the processing

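The same genes of the 10 were called in 16 of 17 alternatives for Runx1KO against control, 16 of 16 for ZebDKO against control and 15 of 16 for ZebDKO against Runx1KO. The exceptions were the limit of 1.3-fold in place of 2-fold, which by its construction called more: 6 genes of the 10 (with *Egfr* and *Erbb2*) in Runx1KO against control and 7 in ZebDKO against Runx1KO, and 4857, 6746 and 6780 of all genes in the 3 comparisons. Of 367 values of single genes under an alternative, 362 kept their direction and their side of the threshold and 5 changed sign, all of them small: for *Met* in ZebDKO against control 0.012 under median-ratio scaling, for *Egfr* -0.027 without control replicate 2 and -0.0082 without ZebDKO replicate 2 (the range with a library left out was -0.027 to 0.048), and for *Nrg1* in ZebDKO against Runx1KO 0.087 under median-ratio scaling and 0.21 under quantile normalization (limma adjusted p = 0.0093). Other causes were not tested. Median-ratio scaling raised the share of called genes that were higher from 50.7% to 64.2% in ZebDKO against control and from 41.7% to 53.8% in ZebDKO against Runx1KO (52.4% under quantile normalization). Leaving out a library gave 1699 to 1706, 1895 to 1960 and 2035 to 2104 genes called.

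With the replicate number as a block the fits called 1709, 1922 and 2071 genes and the same genes of the 10. Deviations of same-numbered libraries had correlations of -0.05 to 0.04, so that the numbers do not pair the libraries.

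Peak counts followed the placement. Genes of the 10 with a Runx1-dependent peak numbered 0 within 20 kb and 1 when a peak was given to the nearest start within 100 kb, with a Runx1KO-induced peak 4 and 4, with a Runx1 peak 1 and 2, with a Runx2 peak of control cells 3 and 5, and with a Runx2 peak of Runx1KO cells 3 and 3. Shares of all genes under these placements were not kept, so that the counts have no background beside them. A q-value limit of 0.01 left the 3 ChIP-seq counts at 5, 6 and 5. Per the paper's methods the peaks were already called at that limit, so that it is no check of these counts. A count model was not run, since no counts were used. The table keeps no read number, so that genes at or under 0.2 TPM, *Ereg* and *Hgf* among them, cannot be told from 0.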
